A study of Mus musculus with 12 samples.

Results

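The 6 arrays of colons from mice on water were selected on their deposited log2 value of Hoxb13, the posterior Hox gene at the end of the Hoxb cluster, into 2 below -2, named low here, and 4 above 0, named high. They were 6 of the 12 arrays of the series, and each genotype gave 1 low and 2 high arrays. The mice were wild type (WT) or TSP-null, both C57BL/6, and TSP-null mice carry a targeted mutation of Thbs1, so that no thrombospondin 1 (TSP-1) protein is made. By the methods they were males of 7 weeks at the start and untreated. The other 6 arrays, 3 of each genotype, came from mice given azoxymethane (AOM, a colon carcinogen) and dextran sodium sulfate (DSS) at 1.5%. DSS injures the colonic epithelium. The paper's methods name normal and diseased colonic tissue as RNA sources, and its heatmap legend calls the treated samples tumors. The labels of the water arrays also carry the text of an earlier experiment with 2.5% DSS for 7 days, which excepts controls. RNA was hybridised to whole-transcript mouse arrays, 1 array per mouse, and the labels do not say which part of the colon it came from, so no array is given a position along the colon here.

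Hox genes encode transcription factors that lay out the head to tail axis, in 4 clusters whose genes are numbered 1 to 13 in the order in which they act from front to back. The genes of group 13 are used in the hindgut and its neighbours, and adult colon keeps part of this code, so that proximal and distal colon differ in the Hox genes they transcribe. Epithelium and mesenchyme both carry such differences, together with regional genes for water and salt transport, mucus and defence.

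The Hoxb13 values that chose the arrays were 2.48 and 1.52 on WT arrays 1 and 2, 1.70 and 2.17 on TSP-null arrays 1 and 2, -3.68 on WT array 3 and -4.24 on TSP-null array 3. No array lay between the limits. Low minus high was -5.93, averaged over the genotypes, which is 60.9-fold on this scale. Since these values made the sets, every low minus high difference below is a description without a test. Both low arrays were replicate 3 of their genotype, so the Hoxb13 set and anything else shared by the arrays numbered 3 cannot be told apart.

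TSP-null array 3 went against the stated sex of the mice. Xist, the RNA of the inactive X chromosome, was 7.90 on it and -0.18 to 0.20 on the other water arrays. Eif2s3y and Kdm5d, genes of the Y chromosome, were -6.37 and -5.58 on it, where the other arrays lay between -0.22 and 0.25. Uty, also on the Y chromosome, passed the limits set below through this array alone and is counted there as it stood. TSP-null array 1 stood apart in other genes: Cpb1 and Ctrb1, pancreatic proteases, were 4.40 and 3.75 on it and between -0.35 and 0.13 elsewhere, and the median of 13 pancreas markers was 1.14 on it and -0.13 to 0.06 elsewhere. Differences without each of these arrays are given with the alternatives. Thbs1 was -1.36, -0.99 and -0.47 on the WT arrays and 0.00, -0.96 and -1.15 on the TSP-null arrays. The mutation leaves the gene in place, and the probe was not placed relative to the mutated part, so this does not check the genotype.

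A probe was counted as separated when low minus high was at least log2 1 in size and both low arrays lay beyond all 4 high arrays. There were 132 separated probes lower in the low arrays (0.458% of the 28815 with a value on all 6 arrays) and 52 higher (0.18%). The lower ones named 113 genes and the higher ones 36. Differences were also larger on the lower side, with a median of -1.41 and 35 probes at 4-fold or more, against a median of 1.14 and 1 such probe on the higher side. Over all probes the median difference was 0.06, 60.4% were higher in the low arrays (51.8% with each array centred), and 21.6% of probes lay higher and 9.09% lower in the low arrays without overlap at any size. Another 51 probes passed log2 1 but overlapped. Without TSP-null array 3 there were 125 lower and 82 higher probes, 87 and 29 of them among those above, and without TSP-null array 1 there were 136 and 70, 117 and 38 of them shared. Without WT array 3 the numbers were 269 and 215, and without WT array 1 they were 123 and 100. The precision of each value is limited by the number of arrays, 2 against 4.

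Genes of Hox group 13 were far lower in the low arrays in 3 of the 4 clusters. Hoxa13, the posterior gene of the Hoxa cluster, was 0.11 and 0.14 on the high WT arrays, 0.79 and 0.78 on the high TSP-null arrays, and -3.78 and -3.68 on the low WT and TSP-null arrays. Hoxd13, its counterpart in the Hoxd cluster, was 0.01, -0.05, 0.25 and -0.15 on the 4 high arrays and -2.22 and -2.09 on the low arrays. Low minus high was -4.18 for Hoxa13 and -2.17 for Hoxd13, and the sets lay far apart in both. Hoxc13 was not among them, with -0.26 to 0.03 on the high arrays, 0.03 and 0.00 on the low arrays, and a difference of 0.17. Thus 3 of the 4 genes of group 13 were lower in the low arrays, Hoxb13 by the choice of the arrays.

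The promoters of Hoxa13 and Hoxd13, which were lower together with Hoxb13, are shown as the 250 bases before the start of each gene in RefSeq on GRCm38.p6, and that of Hoxb13 is not shown. Capitals would mark CAATAAA or TCGTAAA, the short motifs known to be preferred by group 13 Hox proteins, on either strand, and neither promoter held them.
Hoxa13, chr6:52260881-52261130, minus strand: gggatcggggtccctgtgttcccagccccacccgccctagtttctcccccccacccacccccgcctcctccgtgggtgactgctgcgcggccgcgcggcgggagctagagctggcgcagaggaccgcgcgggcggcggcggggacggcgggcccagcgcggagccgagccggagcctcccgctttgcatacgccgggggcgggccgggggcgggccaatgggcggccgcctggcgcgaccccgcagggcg
Hoxd13, chr2:74667975-74668224, plus strand: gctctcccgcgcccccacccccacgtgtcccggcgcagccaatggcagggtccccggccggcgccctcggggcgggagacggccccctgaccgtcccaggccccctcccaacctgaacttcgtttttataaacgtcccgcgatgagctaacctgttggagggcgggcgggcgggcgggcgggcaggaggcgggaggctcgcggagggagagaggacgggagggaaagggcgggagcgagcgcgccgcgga

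The anterior genes did not follow a common direction, as the plot of the 4 clusters shows. In the Hoxb cluster all 8 probes of groups 1 to 9 were higher in the low arrays (median 0.45), opposite to Hoxb13 in the same cluster. This holds for the average over genotypes, and Hoxb9 was -0.02 within TSP-null alone. Hoxb6 was -0.12, 0.11, -0.03 and 0.03 on the high arrays and 1.13 and 1.26 on the low arrays, 2 compact sets with a difference of 1.19. Hoxb4 was -0.26, 0.12, -0.08 and -0.76 against 0.94 and 0.96, also a difference of 1.19. Hoxb5 came next at 0.93. In the Hoxd cluster the 5 probes of groups 1 to 9 were all higher too (median 0.72), and Hoxd9 passed the limits. Its values were 0.25, -0.38, -0.38 and -0.16 against 0.89 and 0.84, a difference of 1.03.

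The Hoxa cluster ran the other way. Averaged over the genotypes, all 10 of its probes were lower in the low arrays. Those of groups 1 to 9 had a median of -0.33 and a range of -0.91 to -0.05. Within WT alone Hoxa2 and Hoxa4 were higher in the low array, by 0.15 and 0.03. Hoxa10 was 0.00, 0.03, 0.36 and 0.26 against -0.90 and -0.69, which stopped just short of the limit at -0.96. Hoxa11 was at -0.36, and Hottip, the long RNA transcribed next to Hoxa13, was at -0.56. The Hoxc cluster stayed close to 0, with 5 of 5 probes of groups 1 to 9 higher at a median of 0.26, and Hoxc10, Hoxc11 and Hoxc12 at 0.29, 0.21 and -0.06. In the Hoxd cluster Hoxd10, Hoxd11 and Hoxd12 were at 0.78, 0.24 and 0.38, so the direction turned between Hoxd12 and Hoxd13. These counts by cluster were the same with every array centred on its median and with the 6 arrays quantile normalized again. Hoxd3os1, an RNA antisense to Hoxd3, was -0.34, -0.23, -0.16 and 0.04 against 1.04 and 1.57 on 1 probe (difference 1.47), but its other probe differed by 0.12.

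**Figure D1:**
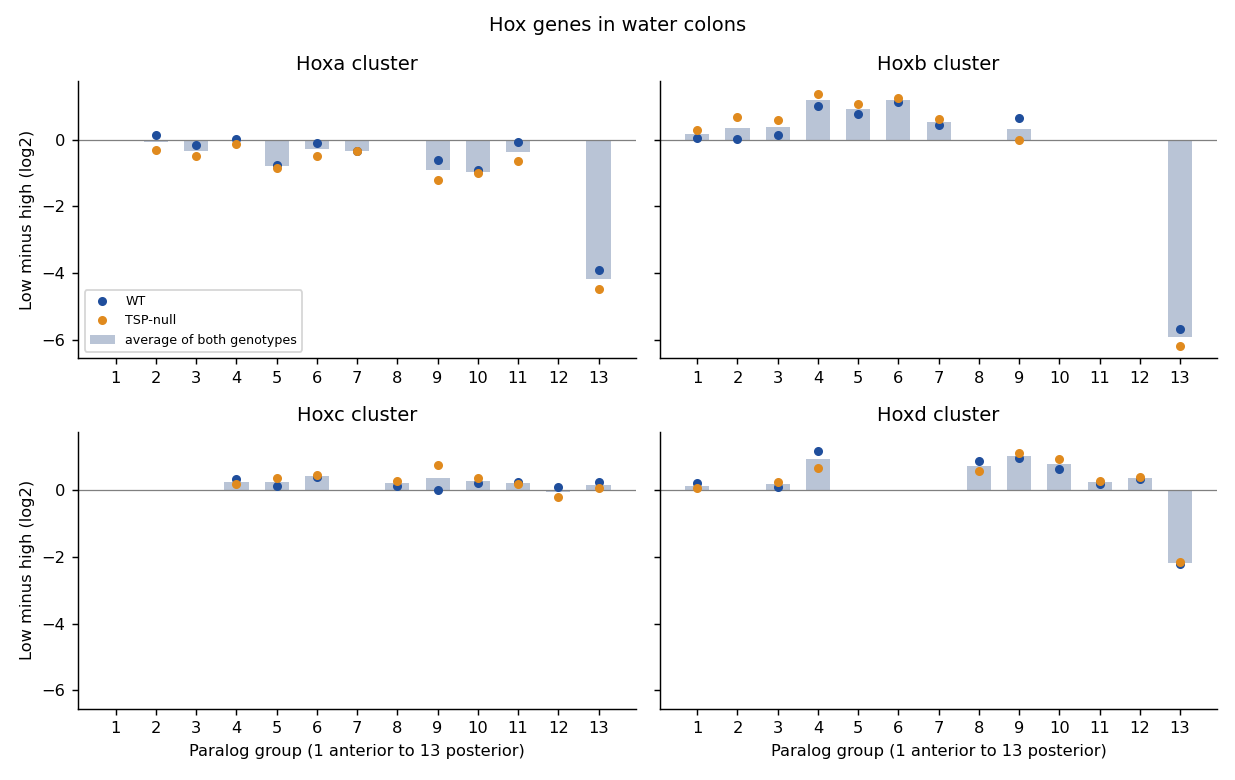
Low minus high difference (log2, y axis) of each Hox gene by paralog group (x axis) in the 4 clusters; bars are the average over genotypes and points are WT and TSP-null on their own. The bars of groups 1 to 9 lie above 0 in Hoxb and Hoxd and below 0 in Hoxa. Those of Hoxa13 (-4.18), Hoxb13 (-5.93) and Hoxd13 (-2.17) lie furthest below.

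Some genes outside the Hox clusters differed as much as group 13. Sval1, which encodes a secreted protein of the seminal vesicle antigen family, was 0.88, 0.35, 1.92 and 1.88 on the high arrays and -4.38 and -4.83 on the low arrays, a difference of -5.86. Ly6g, known for the surface protein that marks mouse neutrophils, was -0.02, -2.45, -0.17 and 0.17 against -5.85 and -6.02 (difference -5.32). Other neutrophil genes lay elsewhere: S100a8 was -4.75 and -4.65 on the low arrays and between -4.96 and -3.98 on 3 of the high arrays, with TSP-null array 1 at 0.96. S100a9 was -5.16 and -5.26 on the low arrays and between -5.99 and -5.09 on the same 3 high arrays, with TSP-null array 1 at 0.49. Ly6m and Ly6g2, genes of the same family on chromosome 15, were lower by -2.53 and -1.19, and Ly6g and Ly6g2 lie within 100 kb of each other and may share probe signal.

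Mptx1, a mucosal pentraxin, was 3.69, 2.92, 2.96 and 2.61 on the high arrays and -0.59 and -1.16 on the low arrays (difference -3.92). Tgm3, a transglutaminase that cross-links proteins, was 4.04, 2.17, 3.61 and 3.84 against -0.97 and -1.02 (difference -4.41). For both the gap between the sets exceeded the spread within them. Thbs4, a relative of thrombospondin 1, was 0.57, 0.23, 1.28 and 1.50 against -1.87 and -2.74, a difference of -3.20. The other thrombospondins differed by 0.02 (Thbs1), 0.33 (Thbs2), 0.49 (Thbs3) and 0.31 (Comp). Anxa8, a calcium-binding annexin, and Csta1, a cysteine protease inhibitor, were lower by -2.93 and -2.89, and the aspartic protease gene Ctse by -2.94. In bulk RNA fewer cells of a type and less RNA per cell cannot be told apart.

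**Figure D2:**
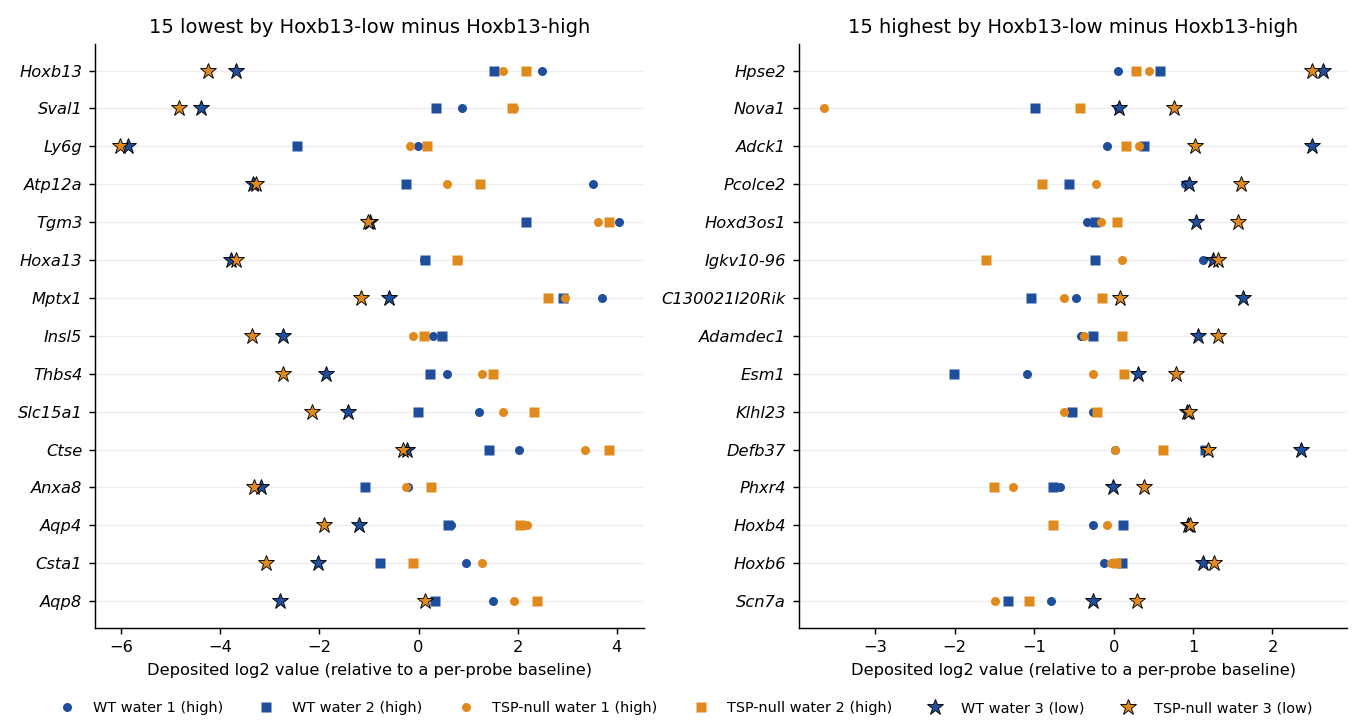
Deposited log2 values (x axis) of the 15 separated genes with the lowest and the 15 with the highest low minus high difference (y axis) on the 6 water arrays. Stars are the low arrays, which lie beyond all 4 high arrays for each gene shown, from Hoxb13 (difference -5.93) to Hpse2 (2.22).

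Several genes of salt and water transport were far lower in the low arrays. Of 32 probes for these genes 22 were lower in the low arrays, beside 11400 of all 28815 probes, at a list median of -0.19. Separation held for 5, all lower, beside 0.458% of all probes. Atp12a, the colonic proton-potassium pump, was 3.52, -0.26, 0.57 and 1.23 on the high arrays and -3.33 and -3.27 on the low arrays (difference -4.57), so the low arrays were alike and the high ones were not. Aqp4, a water channel, was 0.66, 0.59, 2.19 and 2.04 against -1.20 and -1.90 (difference -2.92). Aqp8, the water channel of surface colonocytes, was 1.51, 0.34, 1.93 and 2.39 against -2.79 and 0.13, which left the low arrays themselves far apart. Best2, an anion channel, and Fxyd4, a regulator of the sodium pump, were lower by -1.83 and -1.54, though Fxyd4 on WT array 2 and TSP-null array 3 was -0.31 on both. Slc26a3, Slc9a3 and Scnn1a, which carry chloride, sodium and protons in the colonic surface, differed by -0.89, -0.84 and -0.88 and did not reach the limit. Slc15a1, the peptide transporter PEPT1, listed here with small intestine genes, was 1.21, -0.01, 1.71 and 2.32 against -1.42 and -2.14 (difference -3.09). That list as a whole had 14 of 20 probes higher, beside 60.4% of all probes.

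Genes known from the distal large bowel were lower in the low arrays, and genes known from the proximal large bowel were mixed. Of 11 distal probes 10 were lower, beside 11400 of all 28815 probes, with a median of -0.65. Separation held for 5 of them, where 0.458% of all probes were separated on the lower side. The lists were chosen with earlier results of these data known. Insl5, the hormone of distal enteroendocrine L cells, was 0.30, 0.47, -0.12 and 0.12 on the high arrays and -2.73 and -3.36 on the low arrays (difference -3.24). On the enteroendocrine list 11 of 18 probes were higher, at a median of 0.13, and Insl5 alone was separated. Wfdc2, a secreted protease inhibitor, was 1.29, 1.30, 1.43 and 2.02 against -0.39 and -0.28 (difference -1.85). Neither Insl5 nor Wfdc2 left any overlap. The other separated members of the distal list were Fxyd4, the tight junction gene Cldn8 (-1.11) and the NADPH oxidase gene Nox1 (-1.10). On the proximal list 8 of 11 probes were higher (7 of 11 with the arrays centred), beside 60.4% of all probes, with a median of 0.16, and none was separated on the higher side. Osr2, a transcription factor of proximal mesenchyme, was -0.10, 0.33, 0.24 and 0.04 against 1.16 and 0.95, a difference of 0.93 just under the limit. Slc51a, a bile acid exporter subunit, and the homeobox gene Meis2 differed by 0.65 and 0.81. Aqp4 and Ang4, listed as proximal, were lower by -2.92 and -2.29, against the direction that the name of the list gives.

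Of 29 probes for patterning signals 21 were higher in the low arrays, beside 60.4% of all probes, at a median of 0.16. With the arrays centred 17 of 29 were higher, beside 51.8%. The named genes differed in direction. Bmp4 and Bmp5, ligands of the bone morphogenetic protein pathway made by gut mesenchyme, were higher by 0.81 and 0.77. Bmp2, a ligand made largely by surface epithelium, was 0.23, -0.42, -0.05 and 0.00 against -1.13 and -0.94 (difference -0.97), and none of the 29 probes of this list was separated. Among regional transcription factors 21 of 27 probes were higher, at a median of 0.12, and 0 were separated. Of these Meis1 and Foxf2, of mesenchyme, differed by 0.79 and 0.78, and Klf4, of differentiated epithelium, by -0.78.

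Of 19 goblet cell and mucus probes 3 were separated, all lower, beside 0.458% of all probes, at a list median of -0.05. Ang4, an antimicrobial ribonuclease, was 3.55, 0.55, 2.01 and 0.10 on the high arrays and -0.37 and -1.10 on the low arrays. Retnlb, a goblet cell product, was 0.77, -0.65, 0.96 and 0.39 against -2.75 and -0.84 (difference -2.17), so that WT array 2 and TSP-null array 3 were close. Muc1, a membrane mucin, was lower by -1.50. The whole list had 7 probes higher and 12 lower. The next genes belong to no list and were chosen after their values were seen. Saa1 and Saa2, acute-phase genes so alike that probes may share signal, were lower by -2.37 and -1.87. Tnip3 and Tnfaip3, inhibitors of NF-kB signalling, were -2.82 and -1.33, and Il18, an epithelial cytokine, was -1.66. For Nos2 (-1.34), Acod1 (-1.40), Il1r2 (-1.39), Ptx3 (-1.25) and Clca4b (-2.68) TSP-null array 1 was the highest of the high arrays, for example Ptx3 at 0.78 where the other 3 high arrays lay between -2.31 and -2.10 and the low arrays at -2.70 each.

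Families that lie side by side were lower together: Cyp2c67 and Cyp2c68 on chromosome 19, 3 Cyp2d genes on chromosome 15, and Rdh9, Rdh16 and the pseudogene Rdh18-ps on chromosome 10. They encode cytochrome P450 and retinol dehydrogenase enzymes, and the part of cross-hybridisation within a family was not tested. The list of drug, steroid and lipid metabolism genes went the other way. Of its 32 probes 21 were higher in the low arrays, beside 60.4% of all probes, at a median of 0.20. Separation held for 1 higher and 1 lower probe of it. In all 18 of the 113 lower genes lay within 100 kb of another, and 4 of the 36 higher genes, all of them in the Hoxb and Hoxd clusters. The share of all genes on the array with such a neighbour was not taken, so nothing is read from these counts. Hmcn1, a large matrix gene with 77 probes, had 11 separated probes, at -1.08 to -2.39, and a median of -0.35 over all 77.

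Hpse2, a relative of the heparan sulfate cleaving enzyme heparanase, had the largest difference of the separated probes on the higher side. It was 0.05, 0.59, 0.45 and 0.28 on the high arrays and 2.63 and 2.50 on the low arrays, a difference of 2.22 or 4.66-fold. Adamdec1, a metalloprotease-like gene of the gut lamina propria, was -0.41, -0.26, -0.37 and 0.11 against 1.06 and 1.32 (difference 1.42), and Klhl23 was -0.26, -0.52, -0.62 and -0.21 against 0.92 and 0.95 (1.34). In each of them the 2 sets were compact. Nova1, a neuronal splicing factor, reached 1.66 through TSP-null array 1 at -3.65, and WT array 3 at 0.07 barely passed WT array 1 at 0.06. The gene annotated as Adck1, 2.50 on WT array 3 and 1.03 on TSP-null array 3, and Defb37, a beta-defensin, 2.36 and 1.19, were uneven in the low arrays. Chosen after their values were seen, Kdr and Flt1, receptors for vascular endothelial growth factor, were higher by 1.17 and 1.13. Esm1, a leading gene that encodes a secreted proteoglycan, was higher by 1.35. Ednrb, an endothelin receptor, Bdkrb2, a bradykinin receptor, and Scn7a, a sodium channel of glia and neurons, were higher by 1.05, 1.17 and 1.18. Satb1, a chromatin organiser, was -0.79, -1.02, -0.89 and -0.66 against 0.15 and 0.39 (1.11).

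Markers of other cell types moved with the split to differing degrees. All 15 smooth muscle markers were higher in the low arrays (median 0.41), 10 of them without overlap beside 21.6% of all probes, and none passed log2 1. Their median was -0.42 to -0.10 on the high arrays and 0.13 and 0.09 on the low arrays. Myh11, smooth muscle myosin, was -0.42, -0.55, -0.84 and -0.43 against 0.13 and 0.11. T and NK cell markers differed by a median of 0.13, with array medians of -0.20 to -0.10 on the high arrays and -0.08 and -0.02 on the low arrays. Enteric neuron and glia markers differed by 0.10, adipocyte markers by 0.30, macrophage, neutrophil and mast cell markers by 0.12, and B cell and plasma cell markers by -0.10, each with array medians that overlapped between the sets. Skeletal muscle markers were higher for 11 of 12 probes (median 0.12), beside 60.4% of all probes, with 0 separated. Squamous epithelium markers differed by 0.15 with 0 of 19 separated, and urogenital markers by -0.03 with 0 of 9 separated. Cell cycle genes were slightly lower (16 of 21, median -0.10), and of the immediate-early genes 12 of 14 were lower (median -0.35), Atf3 most at -0.97. Over all probes 11400 of 28815 were lower. The part of cell makeup in the gene differences was not tested.

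**Figure D3:**
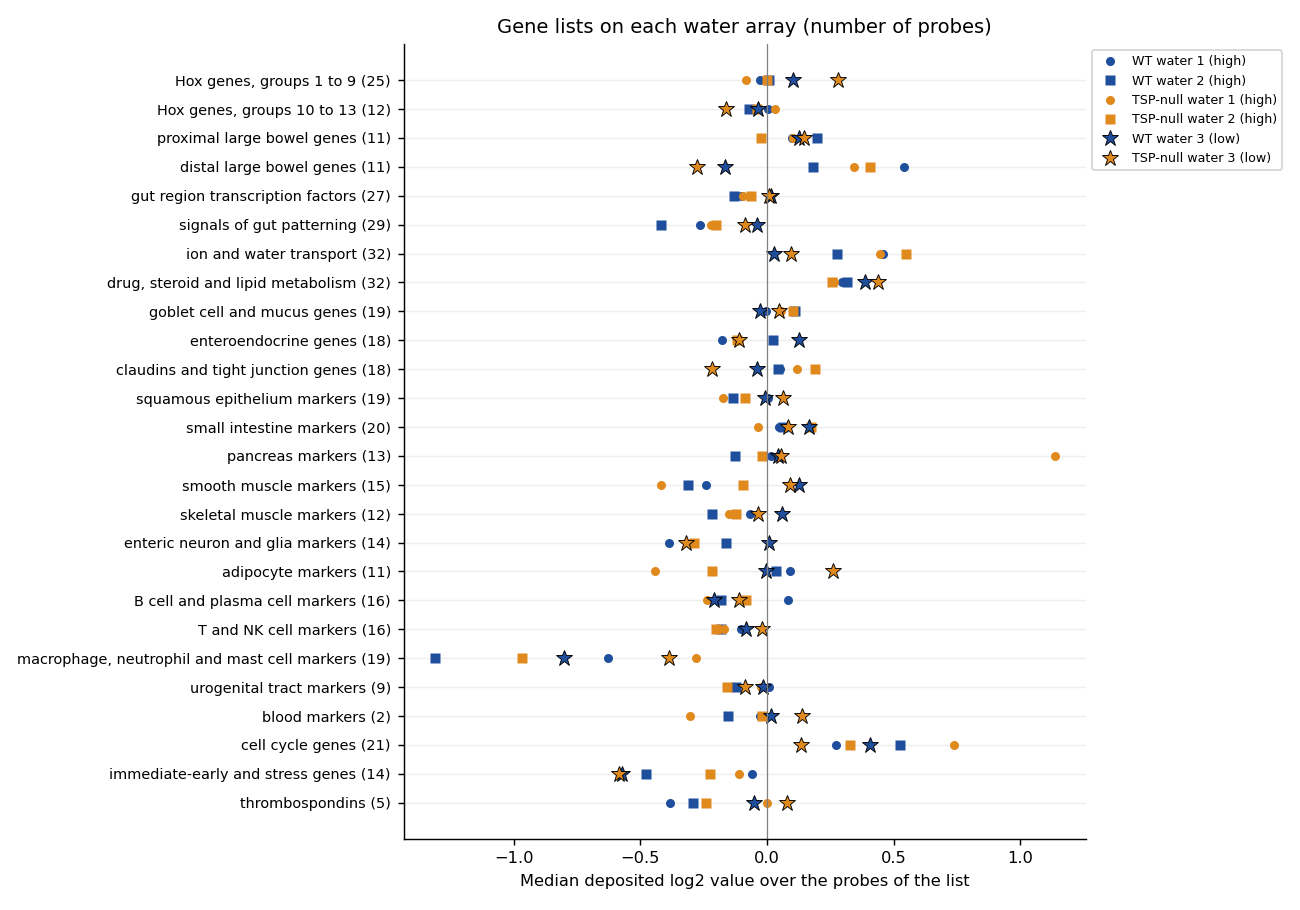
Median deposited log2 value (x axis) of each gene list, with its number of probes, on the 6 water arrays (stars are the low arrays). The low arrays lie to the left for the distal bowel and transport lists and to the right for smooth muscle, and the pancreas list is at 1.14 on TSP-null array 1.

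The difference was also taken within WT and within TSP-null, each from 1 low array, chosen by its Hoxb13 value, against 2 high arrays. At 4-fold 25 probes passed in the same direction in both and 0 in opposite directions. At 2-fold these numbers were 103 and 13. Within WT alone 251 probes passed 2-fold and within TSP-null 573, so most single-genotype differences were not shared, and of the separated probes 79 of 132 and 17 of 52 reached 2-fold in each genotype. The genes named next are separated, so their direction was the same in both genotypes by definition and only the sizes are described. Hoxb13 was -5.68 in WT and -6.18 in TSP-null, and Mptx1 -3.90 and -3.94. Without TSP-null array 3, whose sex genes went against the stated sex, the WT arrays alone gave -3.90 for Hoxa13, -2.20 for Hoxd13, -4.99 for Sval1, 1.13 for Hoxb6 and 2.31 for Hpse2. Clca4b, a chloride channel regulator of epithelium, was -0.59 in WT and -4.76 in TSP-null, with TSP-null array 1 at 0.11. Across the 28815 probes the 2 genotype differences had a Pearson correlation of 0.40, given as a description, since probes of an array share its depth of signal and its normalization.

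**Figure D4:**
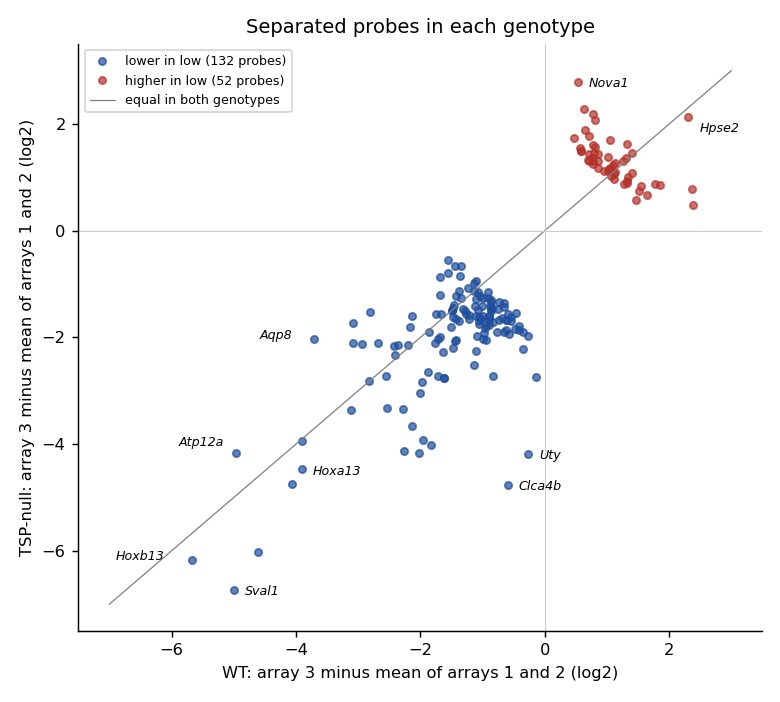
Low minus high difference of each separated probe in WT (x axis, log2) and TSP-null (y axis, log2). The 132 lower and 52 higher probes lie on opposite sides of 0, as the selection requires, and Uty (-0.27 and -4.18) and Clca4b (-0.59 and -4.76) lie furthest from the line of equal differences.

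Values just inside and outside the limit were close together. Maff, Gcnt1 and Kcnj2 were counted at -1.008, -1.01 and -1.026, and Ano1, Pla2g2a and a probe of Hmcn1 were left out at -0.998, -0.993 and -0.976. On the higher side Igsf10, Cap2 and Iapp were counted at 1.006, 1.014 and 1.028, and Fat3, Lepr and Mir100hg were left out at 0.994, 0.975 and 0.972. The named probes most like Hoxb13 over the 6 arrays, among 221 with a range of at least log2 2, were Gpr137b, S100a14, Mptx1, Spink1, Insl5, Cyp2c67, Hoxa13, Hmcn1, Hoxd13 and Tgm3, with Pearson correlations from 0.979 to 0.996. Since 2 arrays lie far from the other 4 in all of them, the correlations restate the split.

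The group 13 motifs were searched in the 250 bases before each start that RefSeq lists for the separated genes. CAATAAA, on either strand, was in 5 of 100 promoters of the lower genes (5%) and 3 of 41 of the higher genes (7.32%), beside 3.10% of promoters of genes on the array and 4.20% of all 32851 promoters. TCGTAAA was in 1 and 2 of these promoters, in 0.518% of those on the array and in 0.478% of all. A gene with several listed starts was counted at each, so the shares rest on few genes. For CAATAAA these were Eno3, Ly6g, Tnip3 and Upp1 on the lower side and Abca8a and Ceacam12 on the higher side. For TCGTAAA they were Adh1 on the lower side and Satb1 on the higher side. Ly6g and Tnip3, lower in the low arrays, and Satb1, higher in them, are shown with the motif in capitals (for Satb1 as the reverse strand of TCGTAAA). Of the listed promoters 2 of 5 for Satb1 and 2 of 2 for Ly6g held the motif, and 1 that held it is printed for each. The printed stretch of Satb1 lies inside the gene, which spans 51736187 to 51833290, before an inner start. The match is a description of these letters only.
Ly6g, chr15:75155011-75155260, plus strand: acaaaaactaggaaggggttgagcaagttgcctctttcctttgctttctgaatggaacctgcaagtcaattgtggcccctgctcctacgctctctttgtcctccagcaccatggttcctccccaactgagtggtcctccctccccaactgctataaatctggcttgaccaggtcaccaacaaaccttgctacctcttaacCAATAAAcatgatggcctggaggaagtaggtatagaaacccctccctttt
Tnip3, chr6:65590148-65590397, plus strand: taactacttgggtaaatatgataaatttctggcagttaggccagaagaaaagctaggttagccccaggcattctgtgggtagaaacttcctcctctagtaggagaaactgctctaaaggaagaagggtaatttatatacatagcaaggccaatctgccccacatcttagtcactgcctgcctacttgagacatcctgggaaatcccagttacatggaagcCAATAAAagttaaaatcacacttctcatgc
Satb1, chr17:51812185-51812434, minus strand: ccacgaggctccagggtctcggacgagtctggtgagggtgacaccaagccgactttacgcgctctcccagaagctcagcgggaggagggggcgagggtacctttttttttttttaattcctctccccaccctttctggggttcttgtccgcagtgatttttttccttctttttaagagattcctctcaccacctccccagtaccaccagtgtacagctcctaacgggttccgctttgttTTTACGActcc

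Genotype was compared next, and each genotype held the same number of low arrays on water. The separated probes were chosen for a wide gap inside each water group, which enters the spread that limma pools over all 12 arrays, so low counts of calls among them are partly built in and nothing is read from them. Between TSP-null and WT colons on water limma called 0 of 28815 probes (0%), where a call needs 2-fold and an adjusted p (Benjamini-Hochberg) below 0.05, with 288 at an unadjusted p under 0.05. None of the 184 separated probes was called. At an unadjusted p under 0.05 there was 1 of them, Esm1, higher by 1.15 in TSP-null (limma adjusted p = 1.00). Hoxb13 differed between the genotypes by -0.23 ± 2.07 (limma SE, n = 3 and 3), a wide interval because each group held both levels. With the Hoxb13 set added as a term, which takes this gap out of the spread, limma on the 6 water arrays again called 0 probes. At an unadjusted p under 0.05 there were then 958 of all probes (3.32%), 23 of the 132 lower (17.4%) and 6 of the 52 higher (11.5%). The separated probes were chosen on these 6 arrays for the gap that the term removes, so nothing is read from these shares.

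The same genes were then read on the AOM/DSS arrays, which stand on another baseline and are compared only among themselves. Because the paper calls these samples tumors, they are not taken as the same tissue as the water colons. The part of tumor tissue in their values was not tested. Hoxb13 was 0.43, -6.33 and -5.89 on WT arrays 1, 2 and 3 and 0.78, -0.06 and 0.06 on the TSP-null arrays. Widely differing levels were again present. Both low values were in WT mice and no TSP-null array was low, so genotype and Hoxb13 level overlap in part. Only WT array 1, which was not low, could part them, and this was not tested. Hoxa13 followed, with -2.86 and -3.09 on WT arrays 2 and 3 and -0.23 to 0.48 on the other 4. Sval1 was -5.91 and -4.74 on those WT arrays and between -0.37 and 0.41 elsewhere. Hottip was -2.94 and -3.58 on them and between -0.07 and 1.58 on the others. Hoxd13 was lowest on the same arrays, at -0.77 and -0.95, though closer to the others, which ran from -0.40 to 0.39. Not every lower gene followed. Mptx1 was -4.79 and -4.19 on WT arrays 2 and 3 but also -3.19 on TSP-null array 3. Aqp8 was -2.36 and 0.43 on those WT arrays and -2.22 on TSP-null array 3. Atp12a was -1.30 and -0.79 on them and -0.94 on TSP-null array 2.

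Among the genes higher in the low water arrays, values on WT arrays 2 and 3 after AOM/DSS varied by gene. Hoxb6 was 1.28 and 0.98 on them, -3.44 on WT array 1, and -2.60, -3.25 and -3.43 on the TSP-null arrays. Adck1 was 0.64 and -0.18 on them and reached 3.37 on TSP-null array 3, and Nova1 was 0.19 and -1.09. Defb37 was 1.40 and 0.98 against values between -3.16 and -2.45. Hpse2 was 1.49 and 0.99, with the other arrays between -3.14 and 0.39. Osr2 was 0.94 and 1.19 and lay between -4.53 and -4.13 on the other 4, though it was not separated on water. Pancreatic Cpb1 was 8.41 on TSP-null array 3 of this set and between -0.45 and 0.29 on the rest. The sets as a whole spread less: the median of the 132 lower probes was 0.43, -0.98 and -0.73 on the WT arrays and 0.54, 0.18 and 0.08 on the TSP-null arrays, and that of the 52 higher probes -0.20, 0.51 and 0.09, then -0.25, -0.05 and -0.06. Hox genes of groups 1 to 9 had medians on WT arrays 2 and 3 of -0.62 and -0.74 in the Hoxa cluster, where the other arrays lay between 0.13 and 0.86. In the Hoxd cluster they were 0.32 and 0.11, with the others between -2.14 and -1.33.

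**Figure D5:**
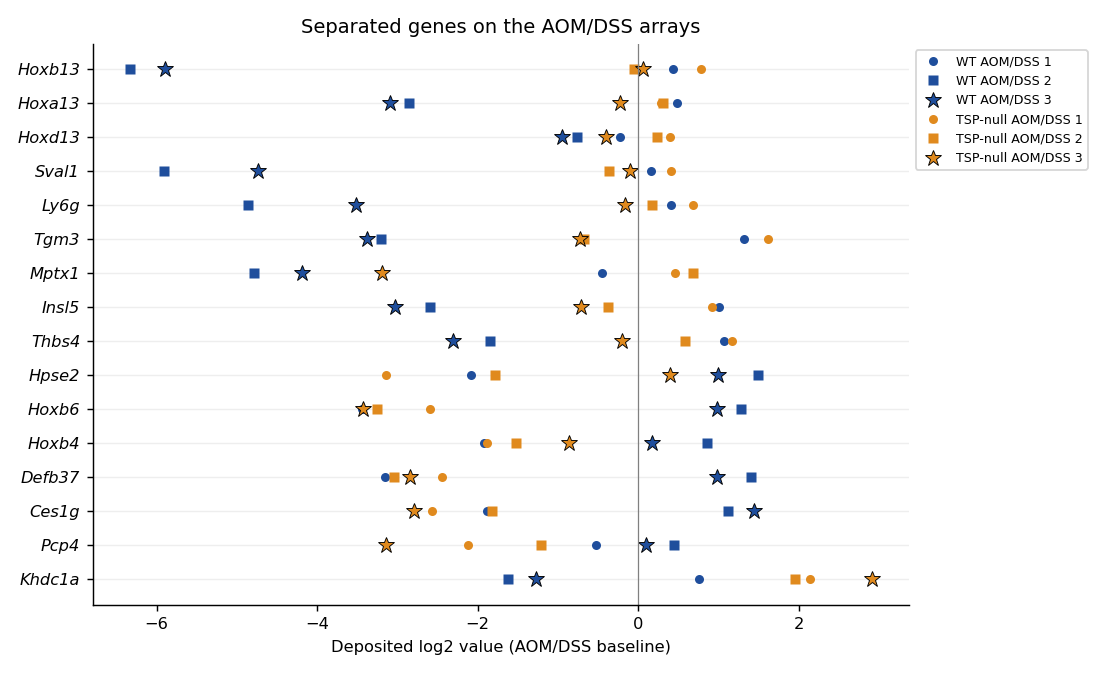
Deposited log2 values (x axis, AOM/DSS baseline) of some separated genes (y axis) on the 6 AOM/DSS arrays, blue for WT and orange for TSP-null (stars are replicate 3). The genes were picked by hand, and Aqp8, Atp12a, Adck1 and Nova1, which did not follow, are not among them. WT arrays 2 and 3 lie apart from the other 4 for Hoxb13 (-6.33 and -5.89) and Hoxb6 (1.28 and 0.98), while WT array 1 lies with the TSP-null arrays.

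Between the genotypes after AOM/DSS limma called 500 probes higher in TSP-null (1.73% of 28853) and 302 lower (1.05%). These became 396 and 414 with each array centred and 243 and 387 after quantile normalization, and the total ran from 6 with only these 2 groups fitted to 1402 without TSP-null array 2. Of the 132 separated probes lower in the low arrays 2 were called higher (1.52% called) and 0 lower, and of the 52 higher ones 0 and 2 (3.85% called). Of all probes 2.78% were called. The shares depended on the fit: with the replicate block they were 12.9% and 9.62% beside 2.06% of all probes, and without WT array 1 they were 9.09% and 17.3% beside 4.65%. At an unadjusted p under 0.05 they were 14.4% and 23.1% beside 32.3% of all probes, but 30.3% and 38.5% beside 23.0% when the AOM/DSS arrays were fitted without the water arrays, so no direction against the background is given. The median difference was 0.81 over the 132 lower probes, 118 of them positive, and -0.37 over the 52 higher probes, 31 of them negative, beside 0.13 over all probes. Hoxb13 itself differed by 4.19 ± 2.07 (limma SE, n = 3 and 3, adjusted p = 0.18) and was not called.

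The called genes were Khdc1a, Adgrf1, Ces1g and Pcp4. Khdc1a, of the KH domain family, was 0.76, -1.62 and -1.28 on the WT and 2.14, 1.95 and 2.91 on the TSP-null arrays, a difference of 3.05 ± 0.84 (limma SE, n = 3 and 3, adjusted p = 0.048). Adgrf1, an adhesion receptor, was 1.37, -0.81 and -0.06 against 2.19, 2.0 and 2.21 (1.96 ± 0.55, limma adjusted p = 0.0497). Ces1g, a carboxylesterase, was -1.88, 1.11 and 1.44 against -2.57, -1.82 and -2.79 (-2.62 ± 0.72, limma adjusted p = 0.047), where WT array 1 lay within the range of the TSP-null arrays. Pcp4, a calmodulin-binding peptide, was -0.53, 0.44 and 0.10 against -2.12, -1.21 and -3.14 (-2.16 ± 0.48, limma adjusted p = 0.029). Each lost its call in at least 5 of 10 or 11 alternatives, with adjusted p up to 0.16, 0.26, 0.17 and 0.12.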

How the data were processed

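The deposited values are on a log2 scale, 1 per probe and array. The authors ran PLIER16, normalized by quantiles and set values relative to a baseline, stated as the median of all 12 samples. Over 28815 probes this median lay within 0.001 of 0 for 1205, so AOM/DSS and water arrays were not compared. The values were used as deposited, from 28853 probes, 38 of them empty on the water arrays. Genes were named from the 21789 probes with 1 symbol (1621 had several and 5443 none), 21698 of them matched to GRCm38.p6.

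The members and gene lists were chosen with earlier results of these data known. Low minus high was averaged within genotype first. Named genes were the 15 extreme genes each way, the Hox genes, up to 6 genes of each list, those nearest the limit and those most like Hoxb13; others were named after their values were seen. Genotypes were compared with limma fitted to all 12 arrays, 1 mean per group, and tested on simulated data. The labels call replicates biological, and p-values measure the spread between these arrays only. Alternatives were another scaling, limit, filter or fit, and leaving out each array. Promoters are RefSeq's. The fits used limma (version 3.58.1) under R (4.3.3), and other values and plots came from numpy 2.4.6, pandas 2.3.3 and matplotlib 3.10.9 under Python 3.11.15.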

Additional observations from a re-analysis of the deposited data

Results flagged for a closer look

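For each of the 30 leading genes the 4 high arrays were searched for a value far from the other 3 by Dixon's ratio of gap to range. Chance gives about 1 such group in 20. Ly6g on WT water array 2 was found, at -2.45 where the other high arrays lay between -0.17 and 0.17. It still lay above both low arrays, at -5.85 and -6.02. The 4 arrays are a set made by the Hoxb13 level, and the groups of 3 were too small for this search.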

How the results depend on the processing

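The low minus high values of the 30 leading genes kept their sign in the 8 alternatives that can move them, where 216 of 240 values moved by less than 1 SD of the high arrays. The other 5 change only which probes are counted or leave these values as they are. Where 1 array was left out the sign was fixed by the selection. Both low arrays lay beyond all 4 high arrays for each of these genes, so nothing is read from the kept sign. The separated probes, 52 higher and 132 lower, became 430 and 374 at 1.5-fold, 1 and 35 at 4-fold, and 17 and 79 at 2-fold in each genotype. Plain means gave 52 and 132, centring 39 and 149, quantile normalization 66 and 138, and probes with 1 symbol 37 and 124. Leaving out 1 array gave 54 to 215 higher and 123 to 269 lower. Without TSP-null array 3 82 were higher and 125 lower. Without WT array 3 these were 215 and 269, with 40 and 124 shared with the full set, and without WT array 1 100 were higher, 48 of them shared. Adck1 and C130021I20Rik were 0.79 and 0.48 without WT array 3 and 2.36 and 2.38 without TSP-null array 3.

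On water 0 probes were called between genotypes in each alternative but that without WT array 3, which called 1, the chemokine gene Cxcl1 (higher by 3.50 in TSP-null); leaving out 1 array thus gave 0 to 1. After AOM/DSS the 802 calls became 6 with only the 2 groups fitted and 296 with probes of low within-group spread. Centring gave 396 higher and 414 lower and quantile normalization 243 and 387, against 500 and 302. Leaving out 1 array gave 104 (without WT array 3) to 1402 (without TSP-null array 2), with 1341, 401 and 170 without WT array 1, WT array 2 and TSP-null array 3. Of the 132 lower probes 2 were called; the count was 10 of the 374 separated at 1.5-fold (2.67%), 1 at 4-fold, 0 with 2 groups, 0 with centring, 1 with quantile normalization and 0 to 12 without 1 array. Of the 52 higher probes 2 were called. Of the 430 separated at 1.5-fold 29 were called (6.74%), 10 higher and 19 lower in TSP-null, and the count was 0 at 4-fold, 0 with 2 groups and 0 to 9 without 1 array. Without any of WT array 2, WT array 3, TSP-null array 1 or TSP-null array 3 both counts were 0, and without WT array 1 they were 12 and 9. The cause was not tested.

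On water each WT array correlated best, by its deviations, with the TSP-null array of its own number (0.093, 0.281 and 0.402). TSP-null array 1, however, correlated more with WT array 2 (0.183). The value of 0.402 is that between the low arrays, and it is the correlation of the 2 genotype differences given above. It runs over all probes, while the split used Hoxb13 alone. The Hoxb13 level and anything else shared by the arrays numbered 3 cannot be told apart in it. After AOM/DSS the correlations of equal numbers were 0.026, -0.043 and -0.025, and WT arrays 2 and 3 correlated more with another number (0.037 and 0.052). Whether equal numbers mark a shared batch was not tested. With the replicate block 0 probes were called on water and 593 after AOM/DSS, 17 of them among the lower and 5 among the higher probes.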
